A study of Rattus norvegicus with 24 samples.

Results

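Microglia, the resident macrophages of the brain, are told apart from other myeloid cells by a small set of genes that they keep on while the tissue is undisturbed. Upkeep of this state is known to depend on signals from neighbouring cells, among them TGF-beta, the ligands of the CSF1 receptor and the neuronal chemokine fractalkine. After injury microglia can lower some of these genes, while blood-derived macrophages that enter the lesion carry few of them. The set described here has 7 genes, chosen by name: Tmem119, Cx3cr1, Sall1, Gpr34, Olfml3, Slc2a5 and Aif1. Of the 29539 genes in the count table, 6 are members of this set, each of these 6 passed the filter on low counts, and Gpr34 was not analysed here. Tmem119 (transmembrane protein 119), Sall1 (a zinc-finger transcription factor) and Olfml3 (a secreted protein) are regarded as largely specific to microglia within the myeloid cells of the brain. Cx3cr1, the fractalkine receptor, and Aif1, the calcium- and actin-binding protein Iba1, are also made by monocytes and other macrophages. Slc2a5 is the fructose transporter GLUT5.

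Poly(A) RNA of rat (Rattus norvegicus) brain was sequenced in 24 libraries, 8 in each of 3 groups: SKF, Vehicle and Normal Control. The SKF group received SKF-81297, which activates dopamine receptors of the D1-like class, by intraperitoneal injection on each of 3 days, with the first dose 1 h after a stab wound of the forebrain. The Vehicle group carries that word alone and was read as wounded brain given the carrier, and Normal Control is not described as sham-operated. The labels do not state strain, sex, age, brain region or time of collection, nor whether each library is a separate animal, so p-values measure the spread between libraries. In bulk tissue, fewer cells of a type and less RNA per cell cannot be told apart.

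Total counts per library ran from 8911339 to 12383368. The mitochondrial share of counts was 7.23% to 9.54% in SKF, 7.16% to 9.40% in Vehicle and 7.95% to 11.7% in Normal Control. Of the Normal Control libraries, number 6 had 0 counts of the Y-linked gene Eif2s3y, against 538 to 833 in all libraries of SKF and Vehicle and the 7 other Normal Control libraries, and number 4 had 8001 counts of the muscle gene Myh4, against at most 34 in any other library. Number 6 also had 2334 counts of Drd1, the D1 dopamine receptor, against 88 to 835 in the other 23 libraries. Results against Normal Control are therefore also given without these 2 libraries. The labelled tissue held a further microglial transcript in each group: Csf1r (the CSF1 receptor, which other macrophages also make, named after its values were seen) averaged 53.0 ± 7.05 TPM (a length-scaled share of transcripts; SD, n = 8) in SKF, 61.1 ± 12.5 TPM in Vehicle and 42.6 ± 4.77 TPM in Normal Control.

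Across the members, wounded brain given vehicle differed from normal brain in 2 genes, which moved in opposite directions. Tmem119 was lower in Vehicle and Aif1 was higher, while Cx3cr1, Sall1, Olfml3 and Slc2a5 did not pass the test. The comparison asks how microglial identity genes stood in the wounded tissue. With edgeR's quasi-likelihood test (Benjamini-Hochberg adjustment over 14421 genes, threshold 0.05), 54% of all tested genes passed in Vehicle against Normal Control, 26.9% higher and 27.1% lower, beside 2 of 6 members. The median log2 fold change was 0.06 over the members and -0.01 over all genes tested.

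Tmem119 had 4.04 to 7.50 TPM in Vehicle, with a median of 5.19, and 8.53 to 24.4 TPM in Normal Control, with a median of 15.0. Every Vehicle library lay below every Normal Control library. Of all tested genes, 20% had TPM ranges without overlap between these groups, 16.7% higher and 3.3% lower in Vehicle. The log2 fold change was -1.51 ± 0.23 (SE, n = 8 per group; edgeR adjusted p = 3.53e-06), which left Tmem119 at 0.35 of its Normal Control level. Of all tested genes, 1.23% had a more negative change. Without Normal Control 4 and 6 the log2 fold change was -1.49 (edgeR adjusted p = 1.94e-05). In SKF the range was 1.68 to 6.93 TPM, with a median of 5.16, again below every Normal Control library. Between SKF and Normal Control 18.4% of all tested genes had ranges without overlap, 14.6% higher and 3.75% lower in SKF.

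Tmem119 was also the member whose level spread most between Normal Control libraries. Its coefficient of variation there was 35.7%, against 7.93% for counting error alone at its mean count. The highest Normal Control value, 24.4 TPM in library 1, was 2.86 times the lowest. Slc2a5 came next, with 30.1% against 13.2% for counting error alone and a highest value 2.33 times the lowest. Cx3cr1 varied least, by 6.99% over the same libraries, with 4.67% for counting error alone.

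Aif1 had 9.49 to 17.9 TPM in Vehicle, with a median of 14.9, and 7.64 to 12.2 TPM in Normal Control, with a median of 8.69. The groups overlapped, and 7 of 8 Vehicle libraries lay above every Normal Control library. Its log2 fold change was 0.57 ± 0.17 (SE, n = 8 per group; edgeR adjusted p = 0.00465), and 0.53 without Normal Control 4 and 6 (edgeR adjusted p = 0.0178). In SKF, Aif1 had 9.31 to 23.7 TPM, with a median of 14.6, and its coefficient of variation was 30.5%, against 17.2% in Vehicle and 15.4% in Normal Control.

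**Figure D1:**
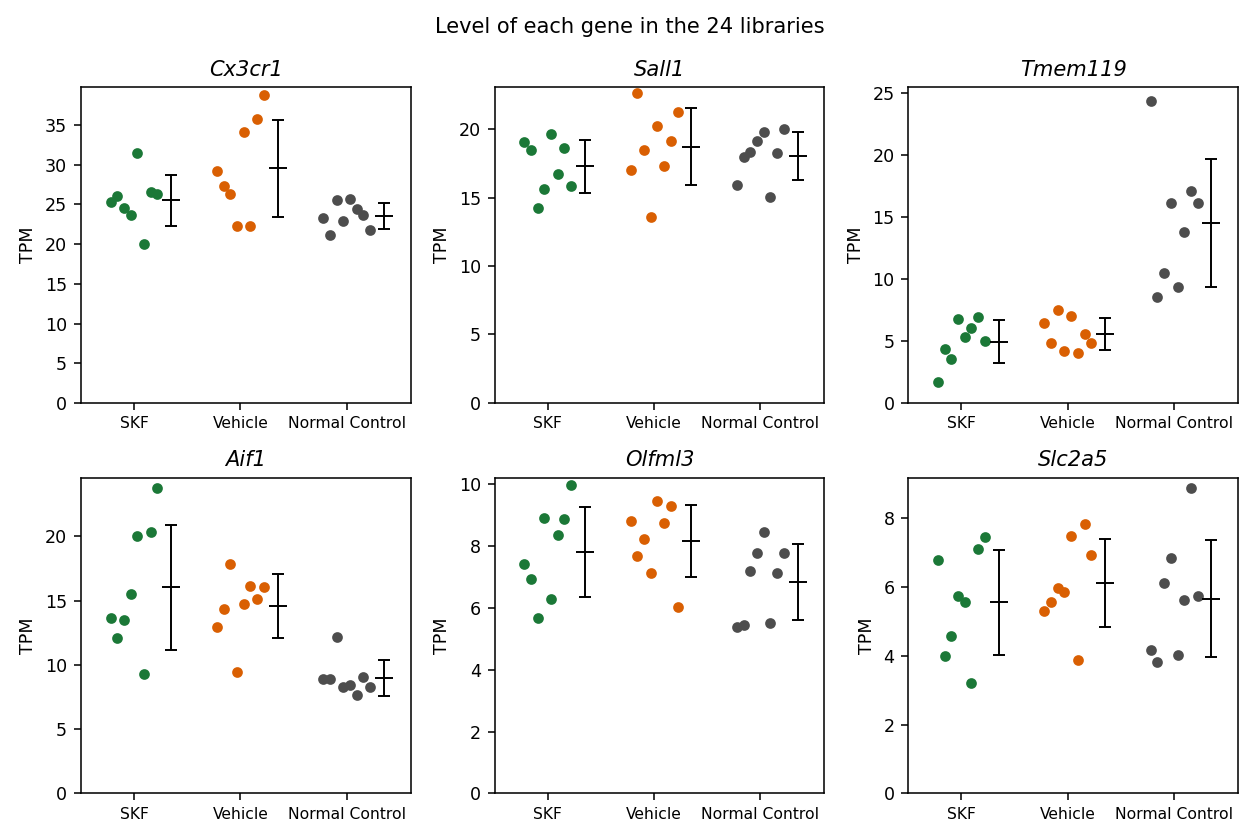
Level in TPM (y axis, from 0) of the 6 measured genes in each of 8 SKF, 8 Vehicle and 8 Normal Control libraries (points), with the mean and SD of each group beside them (black). Tmem119 is below every Normal Control library in all SKF and Vehicle libraries, Aif1 is mostly above, and the other 4 genes overlap between groups.

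Cx3cr1 was the member with the highest level, 22.3 to 38.8 TPM in Vehicle (median 28.3) and 21.1 to 25.7 TPM in Normal Control (median 23.5). In Vehicle 6 of 8 libraries exceeded every Normal Control library in TPM, and 2 lay below the Normal Control median. Fewer did so in TMM-scaled CPM, the scale of the test. There Vehicle 1, 2 and 3 (48.8, 48.1 and 44.9) lay below the highest Normal Control library (49.0). The log2 fold change was 0.20 ± 0.10 (SE, n = 8 per group) with a 95% interval of -0.01 to 0.41, and did not pass (edgeR adjusted p = 0.103). It passed without Vehicle 4 (0.25, edgeR adjusted p = 0.0385), without Vehicle 6 (0.25, edgeR adjusted p = 0.0412), and on the TPM scale (0.29 on log2(TPM + 1), limma adjusted p = 0.0155), where the median of all genes stood 0.11 higher in Vehicle. In SKF the level was 20.1 to 31.5 TPM, with a median of 25.6.

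The window from 250 bases before to 50 bases after the annotated start of Cx3cr1 is shown as the regulatory sequence of the most abundant member. It is taken from RefSeq (build GRCr8, chr8:128677017-128677316, minus strand) and written 5′ to 3′ along the gene. The capitals mark the only match to a loose form of the MEF2 pattern (CTA, any 4 bases, TAG), which begins 102 bases before the start. Its middle 4 bases include a G, where a strict MEF2 site has only A or T. The strict form was not searched.

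Cx3cr1: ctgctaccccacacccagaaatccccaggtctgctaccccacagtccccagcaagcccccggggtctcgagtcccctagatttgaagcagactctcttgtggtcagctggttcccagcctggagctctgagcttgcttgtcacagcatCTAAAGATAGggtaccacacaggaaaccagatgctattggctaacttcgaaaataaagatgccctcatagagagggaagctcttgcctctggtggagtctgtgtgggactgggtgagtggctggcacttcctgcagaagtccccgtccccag

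The loose MEF2 pattern is its own reverse complement, so both strands were covered, and it was found in 3.84% of 33469 RefSeq windows of this length. Windows were held for 4 members, Cx3cr1, Gpr34, Olfml3 and Slc2a5. The letters GAGGAA, a longer form of the GGAA core of ETS factors such as the myeloid PU.1, were searched on both strands. They were found in 27.6% of all windows and 1 of these 4, that of Gpr34. The shorter GGAA was not counted over the windows, and the Cx3cr1 window shown holds it. The interferon regulatory factor pattern (GAAA, any 2 bases, GAAA), also searched on both strands, was in 3.92% of all windows and in 0 of the 4. These are matches of letters and show no binding. Of the MEF2 factors, Mef2a was lower in Vehicle than in Normal Control (log2 fold change -0.31 ± 0.08, edgeR adjusted p = 0.00194) and Mef2c, named after its value was seen, had 0.04 (edgeR adjusted p = 0.721).

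Sall1, whose product holds microglia in their resting programme in mouse, had 13.6 to 22.6 TPM in Vehicle (median 18.8) and 15.0 to 20.0 TPM in Normal Control (median 18.3). The Vehicle range enclosed the Normal Control range. Its log2 fold change was -0.07 ± 0.08 (SE, n = 8 per group; edgeR adjusted p = 0.489), with a 95% interval of -0.25 to 0.10, and the TPM scale gave 0.04. In SKF it had 14.2 to 19.6 TPM, with a median of 17.6.

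Olfml3, a secreted glycoprotein, had 6.01 to 9.44 TPM in Vehicle (median 8.48) and 5.39 to 8.45 TPM in Normal Control (median 7.16). The groups overlapped, with 4 of 8 Vehicle libraries above every Normal Control library in TPM. Fewer were above in TMM-scaled CPM, where Vehicle 1 and 6 (5.62 and 5.74) lay below the highest Normal Control library (5.75). The log2 fold change was 0.13 ± 0.14 (SE, n = 8 per group, 95% interval -0.16 to 0.41, edgeR adjusted p = 0.454). In SKF it had 5.68 to 9.97 TPM, with a median of 7.88.

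Slc2a5 had 3.89 to 7.82 TPM in Vehicle (median 5.91) and 3.82 to 8.89 TPM in Normal Control (median 5.68). All Vehicle values fell inside the Normal Control range in TPM, while in TMM-scaled CPM Vehicle 6 (3.47) lay below the lowest Normal Control library (3.63). The log2 fold change was -0.02 ± 0.19 (SE, n = 8 per group; 95% interval -0.41 to 0.38; edgeR adjusted p = 0.946), and its sign turned on the TPM scale (0.11) and without Normal Control 4 and 6 (0.04). In SKF it had 3.22 to 7.45 TPM, with a median of 5.64. With 32 to 93 counts per library for Slc2a5 and 39 to 77 for Olfml3, counting error alone came to between 13.1% and 14.0% of their mean counts in each group.

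SKF was set against Normal Control as the second comparison with unwounded tissue; it shares the Normal Control libraries with the first. Of all tested genes 50.2% passed, 25.5% higher and 24.7% lower, beside 2 of 6 members, again Tmem119 lower and Aif1 higher. For Tmem119 the log2 fold change was -1.65 ± 0.23 (SE, n = 8 per group; edgeR adjusted p = 1.18e-06) and for Aif1 0.74 ± 0.17 (edgeR adjusted p = 0.000472). Leaving out Normal Control 4 and 6 gave -1.63 (edgeR adjusted p = 7.13e-06) and 0.70 (edgeR adjusted p = 0.00256). Sall1 had -0.17 ± 0.09 (edgeR adjusted p = 0.107), Slc2a5 -0.12, Olfml3 0.09 and Cx3cr1 0.01, and none of these 4 passed.

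SKF against Vehicle asks what the agonist did to these genes in wounded brain. With edgeR 0 of 6 members passed, and 0% of all tested genes. At an unadjusted p under 0.05 there were 715 genes and 0 members, while DESeq2 called 6 genes, none of them a member, and limma voom called 0. Tmem119 had a log2 fold change of -0.14 with a 95% interval of -0.63 to 0.35, and Aif1 of 0.17 with an interval of -0.16 to 0.50. Cx3cr1 had -0.18 (95% interval -0.39 to 0.02), Sall1 -0.09 (-0.27 to 0.08), Olfml3 -0.04 (-0.32 to 0.25) and Slc2a5 -0.11 (-0.50 to 0.29). The log2 fold change was negative in 5 of 6 members, none of which passed, and the share of negative changes over all genes was not counted. Its median was -0.10 over the members and 0.001 over all tested genes. SKF and Vehicle TPM ranges overlapped for each member. Over all tested genes 0.0208% had TPM ranges without overlap between SKF and Vehicle, 0% higher and 0.0208% lower in SKF. For Cx3cr1, 7 of 8 SKF libraries lay below the Vehicle median in TPM, a count that was not made over all genes. Each interval gives the differences that the data allow, and the smallest detectable difference was not estimated.

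**Figure D2:**
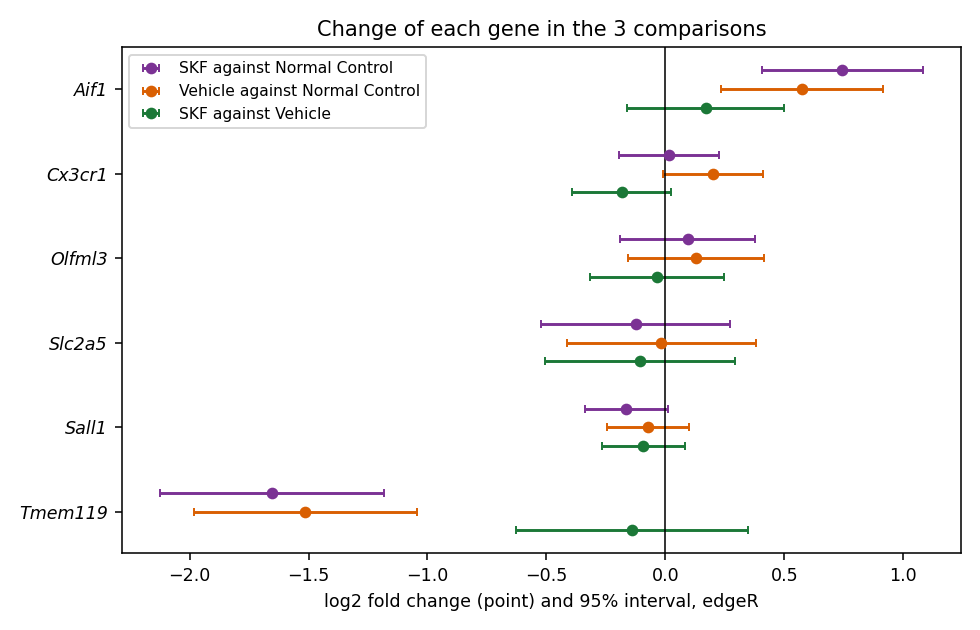
Log2 fold change of each measured gene (x axis) with its 95% interval from the edgeR fit, for SKF against Normal Control, Vehicle against Normal Control and SKF against Vehicle (colours). The intervals of Tmem119 and Aif1 lie clear of 0 in both comparisons with Normal Control, and every interval of SKF against Vehicle includes 0.

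The lower level of Tmem119 changed the order of the members, and the others kept their order among themselves. In SKF and in Vehicle the order was Cx3cr1, Sall1, Aif1, Olfml3, Slc2a5 and Tmem119, with Tmem119 last at 4.95 ± 1.75 TPM in SKF and 5.55 ± 1.30 TPM in Vehicle (SD, n = 8 each), against 14.5 ± 5.18 TPM in Normal Control. In Normal Control the mean TPM ran Cx3cr1 (23.6), Sall1 (18.0), Tmem119 (14.5), Aif1 (8.98), Olfml3 (6.83) and Slc2a5 (5.65). Cx3cr1 exceeded Sall1 in 8 of 8 libraries of each group. Some neighbours did not part beyond their spread: Slc2a5 exceeded Tmem119 in 5 of 8 SKF and 5 of 8 Vehicle libraries, Sall1 exceeded Aif1 in 5 of 8 SKF libraries, and Tmem119 exceeded Aif1 in 6 of 8 Normal Control libraries.

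Within a library, the ratio of 2 members does not depend on depth. The ratio of Aif1 to Tmem119 in TPM was 1.54 to 8.13 in SKF (median 3.33), 2.02 to 3.99 in Vehicle (median 2.55) and 0.37 to 1.16 in Normal Control (median 0.54). Neither wounded group overlapped Normal Control. The ratio of Cx3cr1 to Tmem119 was 3.33 to 15.0 in SKF (median 5.58), 3.51 to 8.04 in Vehicle (median 5.40) and 0.95 to 2.75 in Normal Control (median 1.58).

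Over the 15 pairs of members, the ratios without overlap between Vehicle and Normal Control were the 5 with Tmem119, which restate the separation of Tmem119 itself. Between SKF and Normal Control they were 4 of those 5. The pair that overlapped there was Slc2a5 and Tmem119, with a ratio of 0.53 to 4.04 in SKF and 0.17 to 0.58 in Normal Control. Between SKF and Vehicle the ratios of all 15 pairs overlapped. The highest SKF ratio to Tmem119 in each of these pairs came from SKF 1, which had 18 counts of Tmem119. The 6 levels summed to 63.7 to 88.5 TPM in SKF, 62.6 to 93.9 TPM in Vehicle and 65.8 to 84.1 TPM in Normal Control, so the sum overlapped where the ratios did not. These ratios and sums are a description of the same libraries and were not tested.

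**Figure D3:**
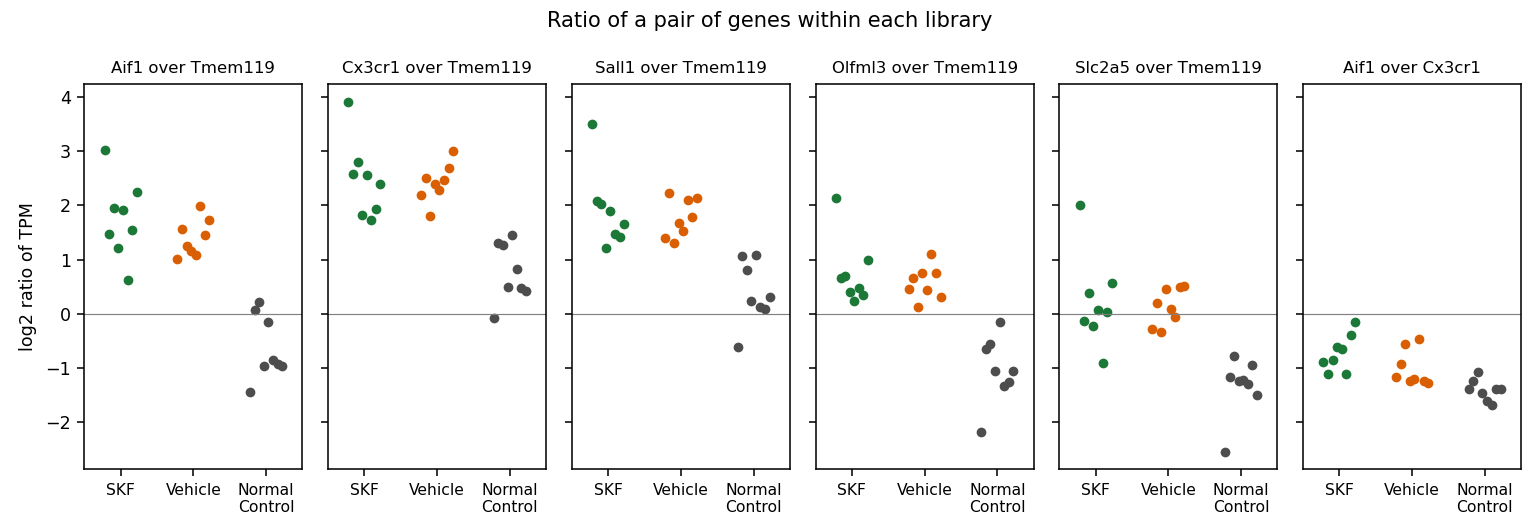
Log2 ratio of the TPM of a pair of genes within each library (y axis) for 6 of the 15 pairs, in 8 SKF, 8 Vehicle and 8 Normal Control libraries (points). The ratios of Aif1, Cx3cr1, Sall1 and Olfml3 to Tmem119 lie higher in all SKF and Vehicle libraries than in any Normal Control library, while Aif1 over Cx3cr1 overlaps.

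Other genes used to mark microglia also moved in both directions. Of 16 tested (19 listed), 7 were higher and 5 lower in Vehicle than in Normal Control, beside 26.9% and 27.1% of all tested genes. Their median log2 fold change was 0.01. The purine receptors P2ry13 (-1.95 ± 0.26) and P2ry12 (-1.49 ± 0.22) and the P-selectin ligand Selplg (-1.17 ± 0.15) fell beside Tmem119. The purine receptor P2ry6 of the same list rose (1.81 ± 0.18). The signalling adaptor Tyrobp (2.57 ± 0.13) and the complement chains C1qc (1.63 ± 0.12) and C1qb (1.39 ± 0.13), which macrophages in general make, rose. P2ry12 had 4.14 to 7.58 TPM in SKF, 2.80 to 8.54 TPM in Vehicle and 7.10 to 20.3 TPM in Normal Control, so its groups overlapped where those of Tmem119 did not. P2ry13 had 1.29 to 3.55 TPM in SKF, 0.438 to 4.28 TPM in Vehicle and 6.47 to 9.79 TPM in Normal Control. As for Tmem119, all its SKF and Vehicle libraries lay below every Normal Control library.

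Transcription factors of the macrophage and microglial programme were higher more often than lower, with 6 of 9 tested (11 listed) higher and 1 lower in Vehicle. The shares over all tested genes were 26.9% higher and 27.1% lower. Spi1, which encodes PU.1, rose by 2.09 ± 0.16 and Irf8 by 1.30 ± 0.13 on the log2 scale, and both are shared with monocytes or other macrophages. Spi1 averaged 21.2 ± 6.20 TPM in SKF, 24.7 ± 3.98 TPM in Vehicle and 5.29 ± 1.33 TPM in Normal Control (SD, n = 8 each). Sall1, in the same role, did not pass. Of the 7 genes common to macrophages, 6 rose and Adgre1, named after its value was seen, did not pass (0.29). Itgam (CD11b) rose by 2.65 ± 0.12 and Cd68 by 3.40 ± 0.21, where Aif1, often used as the stain for the same cells, rose by 0.57.

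Genes listed for blood monocytes and for other macrophages moved with the same contrast. Some of them, such as Cd14 and Msr1, are also made by activated microglia, so their rise does not by itself show entry from blood. For blood monocytes and macrophages, 8 of 9 listed genes passed the filter on low counts and 7 of these rose, and the summed level of all 9 was 202 to 401 TPM in SKF, 289 to 448 TPM in Vehicle and 26.2 to 44.1 TPM in Normal Control. Mcemp1 of that list had 0 counts in every Normal Control library, and the scavenger receptor Msr1 had at most 2, so such genes passed the filter through the wounded groups and the count of those that rose is a description. Ms4a7, below the filter and named after its values were seen, averaged 0.56 TPM in SKF, 0.225 TPM in Vehicle and 0.237 TPM in Normal Control. Border macrophage genes rose in 8 of 8 tested (10 listed), among them Cd163 by 3.20 ± 0.30, with sums of 36.0 to 64.8 TPM in SKF, 50.7 to 67.8 TPM in Vehicle and 8.16 to 17.0 TPM in Normal Control. Some had few counts in Normal Control, with 0 to 5 for Siglec1 and a median of 2 for Pf4. Such genes passed the filter through the wounded groups, so this count is also a description. Proliferation genes rose in 6 of 6, Mcm5 by 4.23 ± 0.18, with the same limit for Cdk1 (a median of 7 counts in Normal Control). The part of entering or dividing cells in the levels of Aif1 and Cx3cr1 was not tested.

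The other lists of markers of other cells were also chosen with earlier results of these data known. That of neutrophils had 6 of 12 listed genes past the filter and that of T and NK cells 3 of 8, and these 6 and 3 rose. Most of them had few counts in Normal Control and passed the filter through the wounded groups, so these counts are a description. Genes below the filter included Cd3e, with 0.313 TPM in SKF, 0.159 TPM in Vehicle and 0.594 TPM in Normal Control, and Ngp, with 0.0839 TPM in SKF, 0.0816 TPM in Vehicle and 0.243 TPM in Normal Control, both named after their values were seen. Pericyte and fibroblast genes had 3 of 9 higher and 1 lower, and endothelial genes 2 of 4 tested (5 listed) higher. Beside these and the other lists, 26.9% of all tested genes were higher and 27.1% lower in Vehicle. Astrocyte genes had 5 of 6 lower with Gfap higher, neuronal genes 4 of 5 lower and oligodendrocyte genes 5 of 5 lower. For activated phagocytes 9 of 11 rose, among them Gpnmb by 4.75 ± 0.13, and Apoe and Lpl fell. In Normal Control, Cst7 of this list had a median of 0 counts and Clec7a of 2.5. Such genes passed the filter through the wounded groups, so this count is also a description. Summed neutrophil markers came to 82.9 to 140 TPM in SKF, 144 to 381 TPM in Vehicle and 6.77 to 13.4 TPM in Normal Control, and oligodendrocyte markers to 5732 to 9268 TPM in SKF, 7484 to 10970 TPM in Vehicle and 8765 to 16512 TPM in Normal Control. In SKF against Vehicle 0 genes of any list passed with edgeR, and 21 of their 135 tested genes (15.6%) had an unadjusted p under 0.05, beside 4.96% of all tested genes. By list that was 4 of 6 for neutrophils, 5 of 8 for blood monocytes and macrophages, 1 of 7 for genes common to macrophages, 0 of 11 for activated phagocytes, 0 of 6 for proliferation and 0 of 3 for T and NK cells. It was also 2 of 4 for endothelium, 2 of 8 for border macrophages and 2 of 9 for pericytes and fibroblasts. The TGF-beta axis had 2 of 13, the other microglia genes 2 of 16 and the transcription factors 1 of 9, and the remaining lists had none.

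**Figure D4:**
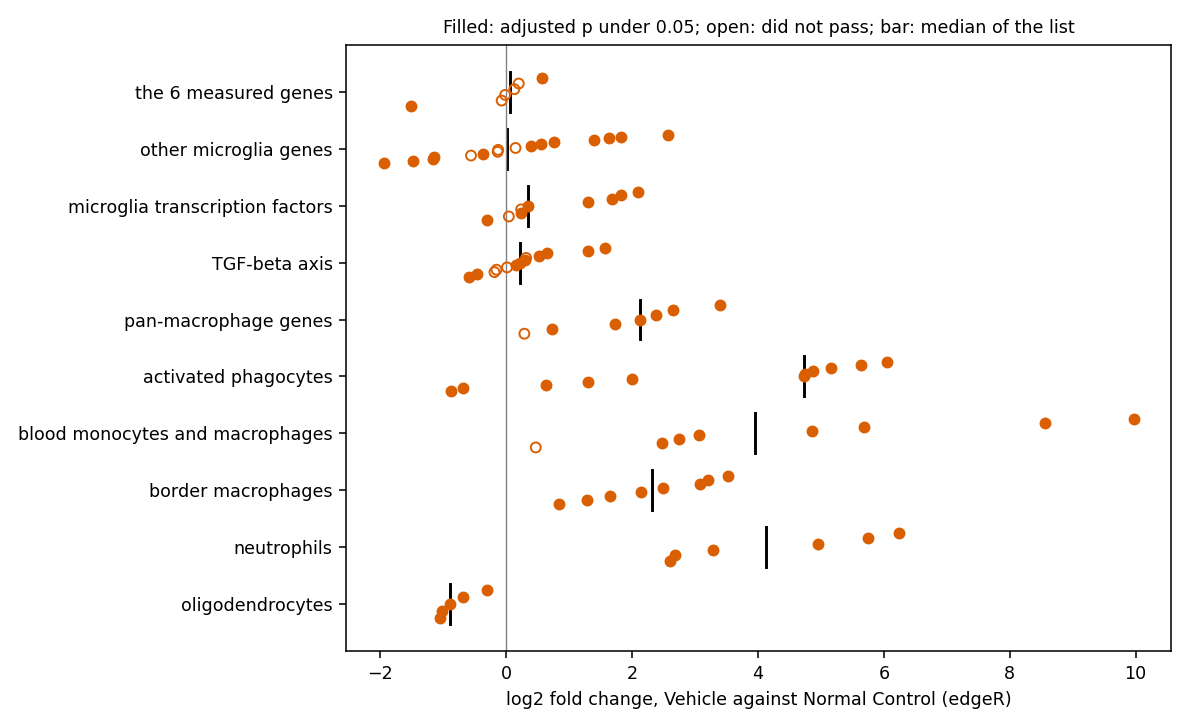
Log2 fold change of Vehicle against Normal Control (x axis, edgeR) for each tested gene of 10 lists (rows, points). Points are filled where the adjusted p was under 0.05, and the black bar is the median of the list. The 6 measured genes lie around 0, with Tmem119 at -1.51 and Aif1 at 0.57, while the medians of the pan-macrophage, blood monocyte and neutrophil lists lie to the right.

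Signals known to sustain microglia were read from lists that were chosen with earlier results of these data known. Cx3cl1, the fractalkine ligand of Cx3cr1 and a neuronal product, was lower by edgeR: 164 to 315 TPM in Vehicle (median 217) and 281 to 458 TPM in Normal Control (median 334), with 210 to 259 TPM in SKF. Its log2 fold change in Vehicle was -0.76 ± 0.11 (SE, n = 8 per group; edgeR adjusted p = 1.45e-06). Adam17 (0.40 ± 0.08) and Adam10 (0.17 ± 0.05), proteases that release fractalkine from the membrane, rose. The ligand thus fell while its receptor Cx3cr1 did not pass.

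Both ligands of the CSF1 receptor rose in Vehicle. Csf1 averaged 35.8 ± 4.05 TPM in SKF, 39.6 ± 5.26 TPM in Vehicle and 16.2 ± 2.59 TPM in Normal Control (SD, n = 8 each; log2 fold change of Vehicle 1.17 ± 0.09). Il34 rose by 0.29 ± 0.11 in Vehicle (edgeR adjusted p = 0.029), and 0.21 in SKF against Normal Control, which did not pass (edgeR adjusted p = 0.117).

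In the TGF-beta axis 7 of 13 genes were higher and 2 lower in Vehicle, beside 26.9% and 27.1% of all tested genes. The ligand Tgfb1 rose by 1.57 ± 0.17, the myeloid activator of latent TGF-beta Nrros by 1.30 ± 0.13 and the receptor Tgfbr2 by 0.65 ± 0.10. The integrin chain Itgb8, which also activates latent TGF-beta, fell by 0.60, and the inhibitory Smad7, itself a target of the pathway, fell by 0.47.

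For Gpr34, whose ligand is lysophosphatidylserine, some of the ligand's enzymes were measured. Pla1a, a phospholipase that makes it, rose by 2.69 ± 0.16, and Abhd12, a hydrolase that removes it, fell by 0.16. Abhd16a, which also makes it, did not pass (0.10, edgeR adjusted p = 0.227). In Vehicle it averaged 107 TPM, where Pla1a had 17.1 TPM. Khk, which phosphorylates the fructose that Slc2a5 carries, fell by 0.62 in Vehicle (edgeR adjusted p = 0.0477). In SKF against Normal Control it had -0.44 and did not pass (edgeR adjusted p = 0.168). Its counts were low, from 11 to 50 per library.

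Family relatives of the members were tested for 10 of 13 genes, of which 2 were higher and 5 lower in Vehicle. Among all tested genes 26.9% were higher and 27.1% lower. Sall2 fell by 0.63 and had 18.8 to 26.2 TPM in SKF, 19.0 to 25.4 TPM in Vehicle and 26.2 to 36.8 TPM in Normal Control. Sall3 stood at -0.15 and did not pass (edgeR adjusted p = 0.436). Aif1l, the relative of Aif1, fell by 0.42 (edgeR adjusted p = 0.00583), opposite in sign to Aif1. In the Slc2a family the glucose transporter Slc2a1 rose by 0.65 ± 0.09 and the myo-inositol transporter Slc2a13 fell by 0.64. Of the olfactomedin-like genes, Olfml2a rose by 0.40 ± 0.12 and Olfml1 fell by 0.62.

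How the members varied together was described by Pearson's r of their log2 CPM deviations from the group means over the 24 libraries, which share depth and tissue makeup. Cx3cr1 had r of 0.55 with Slc2a5, 0.55 with Aif1 and 0.50 with Sall1, and Slc2a5 had 0.51 with Aif1. Tmem119 lay apart, with r between -0.04 and 0.24 to the other 5, and Olfml3 had between -0.04 and 0.33. The 16 other microglia genes had a median r of 0.41 with Cx3cr1, 0.40 with Slc2a5, 0.33 with Aif1, 0.25 with Sall1, 0.11 with Olfml3 and 0.09 with Tmem119, where the median over all genes was between -0.03 and 0.00 for each member. Other cell types' markers had medians close to or above these: astrocyte genes 0.47 with Cx3cr1, 0.39 with Slc2a5 and 0.16 with Tmem119, endothelial genes 0.40 with Cx3cr1, and oligodendrocyte genes 0.66 with Sall1, 0.43 with Aif1 and 0.34 with Olfml3. These correlations were thus not particular to microglia genes.

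The genes most like each member by this measure differed in kind. For Cx3cr1 the nearest was P2ry6, a microglial purine receptor (r = 0.82), then Lilrb3l and Golm1, both at 0.78. Slc2a5 had Irf4 (0.81), Lat2 (0.78) and P2ry12 (0.71). For Sall1 they were Aif1l (0.84), Serinc5 (0.81) and Myh14 (0.81), and, looked at after values were seen, the 5 oligodendrocyte genes had r of 0.57 to 0.74 with Sall1, beside -0.11 to 0.58 for the 16 other microglia genes. Olfml3 had Peg12 (0.83), Mgp (0.71) and Dnlz (0.69), Aif1 had Coq7 (0.82), Dnajc1 (0.81) and Asmtl (0.77), and Tmem119 had Blzf1, Nsun6 and Timm44, between 0.63 and 0.65. Over 14421 genes and 24 libraries, high values of r also arise without any tie between genes, and nothing is drawn from them. By RefSeq gene models (GRCr8), Cx3cr1, Sall1 and Olfml3 each overlap 1 lncRNA, and the labels do not state whether counting used strand.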

How the data were processed

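Gene-level read counts and TPM values of the same 24 libraries, as deposited by the authors, were used; the build named is mRatBN7.2, per the submitters' processing notes, from poly(A)-selected RNA and a directional kit, per the labels' protocols. No aligner or counter is named in the labels. Groups come from sample titles. Levels are deposited TPM, each column of which sums to 1000000. Genes were tested on deposited counts with edgeR 4.0.16 in R 4.3.3 (TMM, filterByExpr by group, robust quasi-likelihood F test), with the 3 groups fitted together (21 residual degrees of freedom); SE is the log2 fold change over the root of F. The fit was tested on simulated data. Total counts set the depth, and counting error was taken as 1 over the root of the mean count. Alternatives used DESeq2 1.42.0, limma 3.58.1 and others listed in the closing section. Likeness used log2 CPM with a prior count of 2. The 7 genes and 19 lists were chosen with earlier results of these data known. From each list the text names up to 3 genes with the smallest adjusted p in each direction in Vehicle against Normal Control, the 3 genes most like each member, and the members' ligands and relatives. Python 3.11.15, NumPy 2.4.6, pandas 2.3.3 and Matplotlib 3.10.9 were used. Some genes that this rule names are not reported here.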

Additional observations from a re-analysis of the deposited data

Results flagged for a closer look

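In 18 groups of 8 TPM values (6 genes in 3 groups), 1 held a library far from the others. Aif1 in Normal Control 3 stood at 12.2 TPM, where the next highest library had 9.04 TPM and the lowest 7.64 TPM, a gap of 0.693 of the group's range. Chance flags about 1 in 20 such groups. Without that library the log2 fold change of Aif1 was 0.65 in Vehicle against Normal Control and 0.82 in SKF against Normal Control.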

How the results depend on the processing

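Alternatives were RLE size factors, DESeq2, no filter on low counts, a filter of CPM 1 in 8 libraries, limma voom with sample weights, a fit of just the 2 groups in question, the replicate block, limma on log2 TPM (pseudocounts 1 and 0.1 with TPM of at least 0.5 in 8 libraries, and pseudocount 1 with no filter), each library left out in turn, and Normal Control 4 and 6 left out together. Under each of these Tmem119 stayed lower and Aif1 higher past the threshold in both comparisons with Normal Control. Tmem119 ranged from -1.60 to -1.37 with 1 library left out and from -1.52 to -1.20 otherwise in Vehicle, and Aif1 from 0.53 to 0.65 and from 0.53 to 0.69. Of 480 values of single members under alternatives, 456 kept direction and side of the threshold, 5 newly passed and 19 changed sign, none of these 19 past the threshold. The 5 are Cx3cr1 in Vehicle against Normal Control, at 0.29, 0.30 and 0.29 on the TPM scales (limma adjusted p = 0.0155, 0.0157 and 0.0202) and without Vehicle 4 or 6, with a range of 0.13 to 0.25 over libraries left out. In the same comparison Sall1 turned to 0.040 on log2(TPM + 1), with and without the filter, and to 0.042 on log2(TPM + 0.1), and Slc2a5 to 0.11 and 0.13 on the TPM scales and to 0.040 without Normal Control 4 and 6, ranging from -0.085 to 0.099 over libraries left out. Cx3cr1 in SKF against Normal Control turned to -0.00083 in the replicate block and ranged from -0.028 to 0.063, and Olfml3 in SKF against Vehicle ranged from -0.11 to 0.014. The cause of these turns was not tested. On the TPM scale the median gene stood 0.11 higher in Vehicle, and 5491 genes were higher and 2410 lower, against 3879 and 3904 with edgeR. SKF against Vehicle had 0 genes with edgeR and 6 with DESeq2. Replicate numbers recur across groups, but of 24 same-numbered pairs 0 had deviations correlated above 0.1 (-0.289 to 0.075); with the replicate block edgeR called 7434, 0 and 6830 genes in Vehicle against Normal Control, SKF against Vehicle and SKF against Normal Control, where it called 7783, 0 and 7239 without it, and 2, 0 and 2 members either way. Depth limits Olfml3, Slc2a5 and, in wounded brain, Tmem119, with under 100 counts a library.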
